A study of Mus musculus with 41 samples.

Results

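Met encodes the receptor tyrosine kinase for hepatocyte growth factor (HGF), and 23 of the 41 sequenced mouse mammary tumors form the groups compared here by their Met RNA. The groups, chosen by these measured Met values, were taken from 25 of the 28 Plk2-/-; p53-/- tumors, leaving out PLK2null-732, PLK2null-733 and PLK2null-743. A Met value of at least 50000 placed 17 tumors in the Met-high group, and a value under 10000 placed 6 in the Met-low group. PLK2null-1967 and PLK2null-1971, which lay between the thresholds, entered neither group. Values are Salmon estimated counts scaled by the authors so that the upper quartile of nonzero values is 1000 in every tumor.

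All 23 tumors lacked Plk2 and p53. They arose from Balb/c mammary epithelial cells that had been grafted into the cleared mammary fat of wild-type hosts of the same strain. No drug treatment is described for the sequenced tumors. The paper stored tumor pieces for later transplantation, and the labels do not say which of the 23 were primary tumors or transplants. Host stroma and blood cells carry both genes. The age of the animals was not given for the tumors. The 13 p53-/- tumors, which took no part in choosing the groups, served as an outside set. Every p53-/- title carried a series name that no Plk2-/-; p53-/- title carried, so that series and genotype cannot be told apart.

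HGF is made mainly by stromal cells as an inactive precursor, is cleaved by serine proteases such as matriptase, and binds Met on epithelial cells. Active Met recruits adaptors including Gab1 and Grb2 and signals through the Ras-MAPK, PI3K and Stat3 pathways. In the mammary gland HGF is known for branching of the ducts, and in tumors Met is known for motility and invasion.

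The Met gene (ENSMUSG00000009376.15) occupies positions 17463800 to 17573980 of chromosome 6 in GRCm38 (mm10) and is read from the plus strand. Because Met chose the groups, its values are a description. In the Met-low tumors they were 419 in PLK2null-1964, 625 in PLK2null-7747, 640 in PLK2null-7748, 745 in PLK2null-1965, 810 in PLK2null-1963 and 1008 in PLK2null-7763. In the Met-high tumors the lowest value was 60280, the median 128895 and the highest 203935. PLK2null-7763, the Met-low tumor nearest to its threshold, was far below it at 1008, and PLK2null-1984 at 60280 was the Met-high tumor nearest to its own. PLK2null-1967 at 14842 and PLK2null-1971 at 18874 lay between the thresholds. Among the p53-/- tumors p53null-2208L had 93104, and the other 12 had 144 to 3849.

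The labels do not say which tumors descend from the same primary tumor. By the similarity of their most variable genes the 25 tumors were cut into 7 sets. Only that number was set beforehand from the study's record of primary tumors, and similarity alone decided the members. The sets therefore need not match primary tumors, and whether they do was not tested. Of the 25, 23 had their closest tumor in their own set, by the same similarities that built the sets. PLK2null-1971 was closest to PLK2null-7747 of another set, and PLK2null-7763 stood alone. Within the set of PLK2null-7753 r fell to 0.73, while PLK2null-1977 reached 0.82 with a tumor outside it. PLK2null-1963, PLK2null-1964, PLK2null-1965 and PLK2null-7747 made 1 set, so that the 6 Met-low tumors came from 3 sets and the 17 Met-high tumors from 4. No set had members in both groups. The set was therefore entered as a block in every test unless stated, with a correlation of 0.53 between tumors of a set. A permutation over 3 sets against 4 could not give a p-value below 0.0571. The p-values below still draw on the number of tumors within the sets, although each set lies in 1 group.

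**Figure D1:**
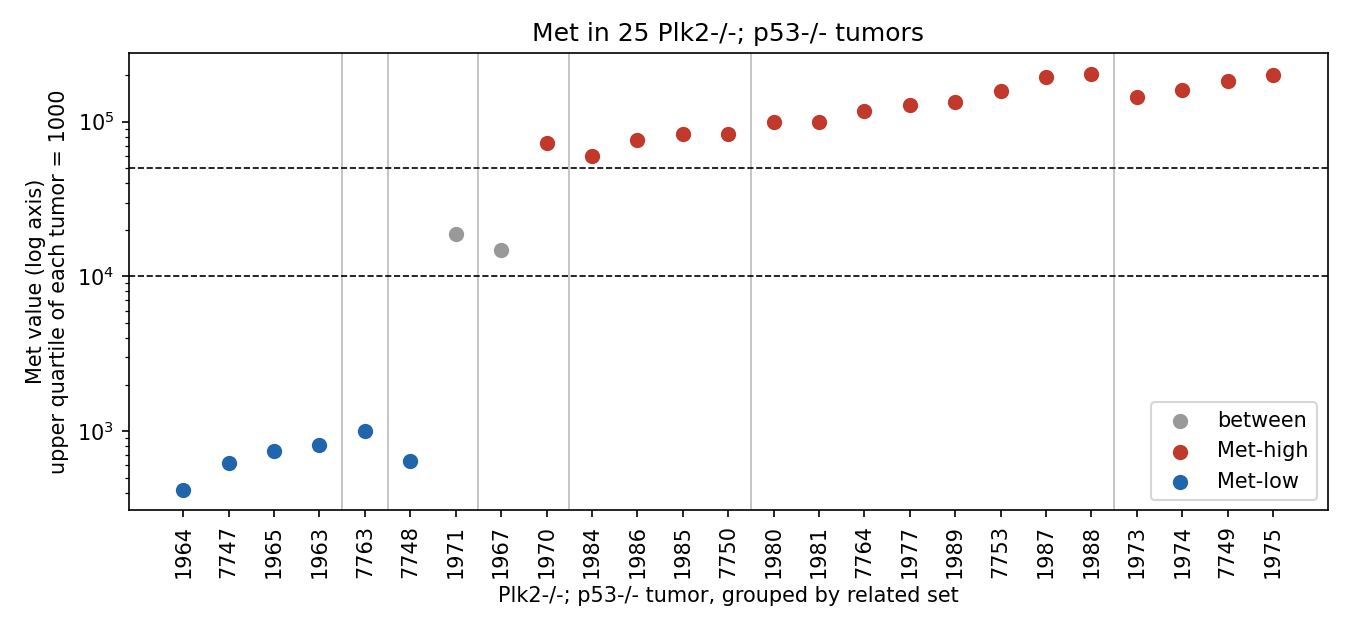
Met value on a log axis for each of the 25 tumors; each point is 1 tumor, grey vertical lines separate the 7 related sets and dashed lines mark the thresholds of 10000 and 50000. The 6 Met-low tumors sit between 419 and 1008, all below the 2 tumors in between, and the 17 Met-high tumors sit at 60280 or above.

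Sequencing depth was 31910250 to 47779500 fragments in Met-low and 34128800 to 53244700 in Met-high tumors, and a floor of 3 reads corresponded to values of 1.48 to 2.26. PLK2null-7763 stood apart. Its summed value over 10 endothelial markers was 92869, against at most 7864 in the other Met-low and 11099 in the Met-high tumors, and its adipocyte markers summed to 53206, against at most 2520 in the other Met-low tumors. Several calls below, among them those of St14, Cd44, Erbb3 and Pparg, were lost without it. Tumors were bulk tissue, in which fewer cells of a type and less RNA per cell cannot be told apart.

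The question was which transcripts outside chromosome 6 differed with Met. Of 15441 genes tested there, 890 were higher in Met-high tumors (5.76%) and 1645 were lower (10.7%) at an adjusted p below 0.05 in limma on log2(value + 1). In 355 of the higher genes (2.3% of those tested) and 685 of the lower (4.44%) the values of the groups did not overlap. The balance of directions depended on scaling. The median difference of all genes outside chromosome 6 was -0.17, and rescaling by trimmed means moved it to 0.03 with 1325 higher and 993 lower genes. Quantile normalization moved it to 0.0 with 1321 higher and 1149 lower. Differences below are best read against the median of -0.17.

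The transcripts that tracked Met most closely over the 25 tumors were those of Nfil3, a basic leucine zipper repressor, Sbno2, a transcriptional coregulator known downstream of interleukin-10, and Junb, an AP-1 subunit. They were picked for this likeness, so the correlation is a description, and the 25 tumors share related sets. Pearson's r with Met on the log2 scale was 0.96 for Nfil3, 0.96 for Sbno2 and 0.96 for Junb. Within the 17 Met-high tumors alone r was 0.65, 0.62 and 0.27 in the same order.

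Nfil3 was 67.8 to 173 in the Met-low tumors (median, 113) and 567 to 1376 in the Met-high tumors (median, 773), a log2 difference of 2.88 ± 0.33 (SE; adjusted p = 9.07e-06, limma). Sbno2 was 1005 to 1667 in Met-low (median, 1347) and 3541 to 5665 in Met-high tumors (median, 4800), a difference of 1.83 ± 0.17 (SE; adjusted p = 7.44e-07, limma). Junb was 858 to 1806 in Met-low (median, 1188) and 4566 to 9848 in Met-high tumors (median, 6702), a difference of 2.53 ± 0.23 (SE; adjusted p = 3.54e-07, limma). In none of the 3 did the groups overlap. The tumors in between, which were among the 25 used for r, had intermediate values for all 3: PLK2null-1967 had 406 for Nfil3, 3062 for Sbno2 and 4311 for Junb, and PLK2null-1971 had 320, 1954 and 2353.

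**Figure D2:**
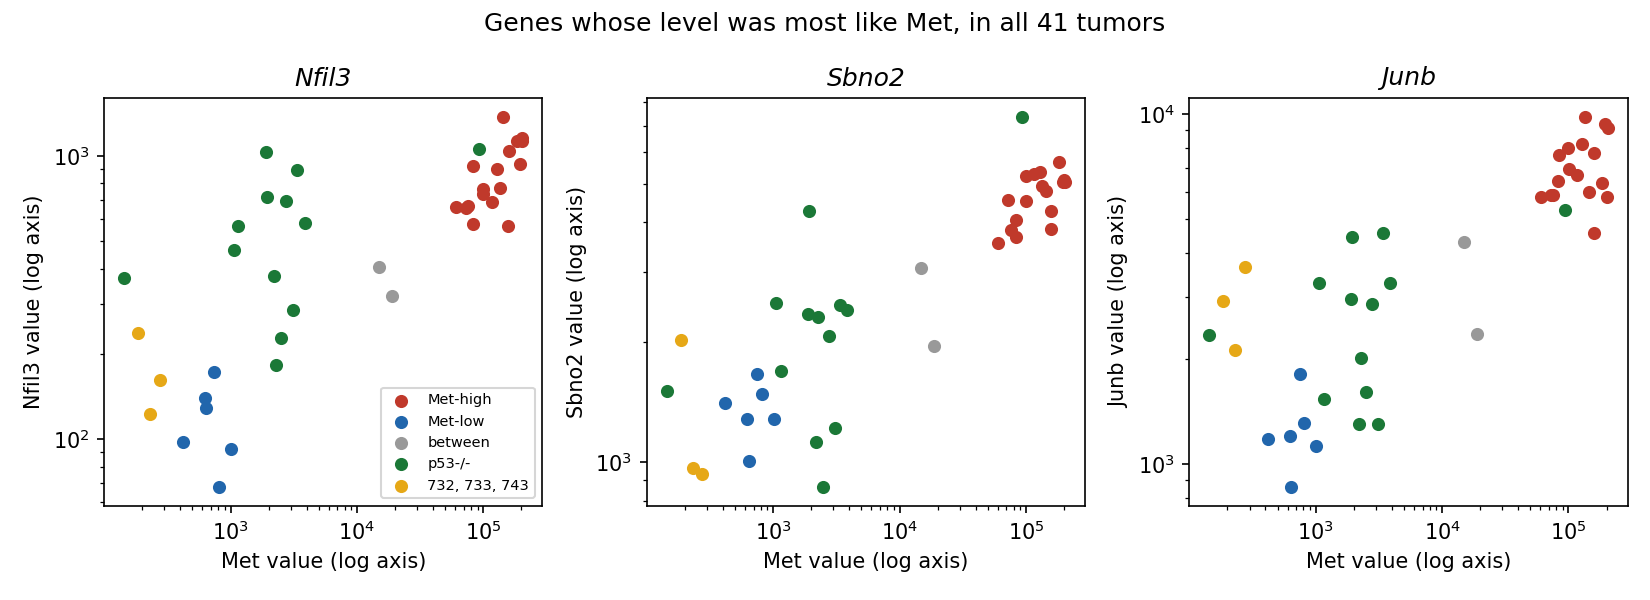
Nfil3, Sbno2 and Junb values against the Met value, both on log axes, in all 41 tumors; each point is 1 tumor and colour gives its group. The 17 Met-high tumors lie above the 6 Met-low tumors in all 3 panels, and p53null-2208L, the p53-/- tumor with a Met value of 93104, lies near them, while the other p53-/- tumors spread widely at low Met.

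The next 5 in the order of r were Cd300lf (0.94), Fcrlb (0.94), Trem1 (0.94), Ccr1 (0.93) and C1qtnf1 (0.93). Cd300lf, Trem1 and Ccr1 encode receptors of myeloid cells, Fcrlb an Fc receptor-like protein, and C1qtnf1 a secreted protein of the C1q and TNF family. Trem1, which amplifies inflammatory responses, was 6.02 to 12.7 in Met-low and 71.8 to 235 in Met-high tumors, a difference of 3.80 ± 0.40 (SE; adjusted p = 2.78e-06, limma). Within the Met-high tumors r was 0.18 for Cd300lf, 0.12 for Fcrlb, -0.09 for Trem1, 0.23 for Ccr1 and 0.72 for C1qtnf1. Of the 8 genes 3 had an r of at least 0.5 there.

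Opposite to Met ran Tmem132d, Serpinb1b, Pdss2 and Sesn1, with r of -0.96, -0.95, -0.95 and -0.95. Sesn1, a stress-induced inhibitor of mTORC1 known as a p53 target, was 1407 to 2251 in Met-low and 251 to 500 in Met-high tumors, and it fell by 2.23 ± 0.22 on the log2 scale (SE; adjusted p = 1.19e-06, limma). Pdss2, which acts in coenzyme Q synthesis and lies 1313 kb from Sesn1 on chromosome 10, was 422 to 820 in Met-low and 136 to 270 in Met-high tumors. Tmem132d was 27.1 to 283 in Met-low and at or below 3 reads in all 17 Met-high tumors. Against that floor its Met-low median was at least 72.0-fold higher. All 12 of these genes were called and did not overlap between the groups, which their choice by r with Met made likely beforehand. Of all genes tested outside chromosome 6, 2.3% were called higher and 4.44% lower without overlap.

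Promoters of the leading genes are shown because their RNA moved with Met. RefSeq windows on GRCm38.p6 run from 250 bases before to 50 after the start and held 7 of the 8 most Met-like genes. Both motifs were searched on both strands, which for these palindromes is the same, and capitals mark the matches: TGANTCA, bound by AP-1, and TTCNNNGAA, bound by STAT factors. They do not overlap in the windows below. Of all 32851 windows 7.81% held the first and 8.3% the second.

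Met, chr6:17463707-17464006, plus strand: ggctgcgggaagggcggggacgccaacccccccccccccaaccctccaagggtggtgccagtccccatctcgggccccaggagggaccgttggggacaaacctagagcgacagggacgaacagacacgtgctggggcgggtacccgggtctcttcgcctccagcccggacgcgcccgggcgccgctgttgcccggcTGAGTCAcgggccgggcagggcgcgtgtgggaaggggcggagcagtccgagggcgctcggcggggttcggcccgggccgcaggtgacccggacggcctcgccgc

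Nfil3, chr13:52980990-52981289, minus strand: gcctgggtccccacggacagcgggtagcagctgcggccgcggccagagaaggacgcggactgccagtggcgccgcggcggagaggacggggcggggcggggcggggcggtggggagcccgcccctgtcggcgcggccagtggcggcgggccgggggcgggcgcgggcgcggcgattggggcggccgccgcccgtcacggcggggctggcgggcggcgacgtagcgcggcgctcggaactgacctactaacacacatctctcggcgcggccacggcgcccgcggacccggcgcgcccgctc

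Sbno2, the first-listed of 3 windows, chr10:80102653-80102952, minus strand: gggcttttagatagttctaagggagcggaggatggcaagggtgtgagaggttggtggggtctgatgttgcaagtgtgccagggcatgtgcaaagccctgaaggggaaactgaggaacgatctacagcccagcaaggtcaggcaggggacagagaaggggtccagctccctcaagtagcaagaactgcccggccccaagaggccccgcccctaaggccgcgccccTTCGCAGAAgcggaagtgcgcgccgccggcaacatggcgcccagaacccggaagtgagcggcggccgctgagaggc

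Junb, chr8:84978699-84978998, minus strand: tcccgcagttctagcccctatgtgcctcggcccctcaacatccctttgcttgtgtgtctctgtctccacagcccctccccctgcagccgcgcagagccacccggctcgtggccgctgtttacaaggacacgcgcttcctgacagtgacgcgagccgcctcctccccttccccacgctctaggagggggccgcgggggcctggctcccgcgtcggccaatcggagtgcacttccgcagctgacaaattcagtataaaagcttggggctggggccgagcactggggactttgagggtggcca

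Trem1, chr17:48232489-48232788, plus strand: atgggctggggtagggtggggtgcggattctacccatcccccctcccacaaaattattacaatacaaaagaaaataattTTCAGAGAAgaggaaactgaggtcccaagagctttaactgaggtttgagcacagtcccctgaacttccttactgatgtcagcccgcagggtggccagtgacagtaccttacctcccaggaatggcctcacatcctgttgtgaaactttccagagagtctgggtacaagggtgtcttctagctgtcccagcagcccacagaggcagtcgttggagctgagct

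The Met window held 1 AP-1 match and no STAT match. Among the 7 Met-like genes a STAT match stood in 2, Sbno2 and Trem1, and in 2 of the 3 Sbno2 windows. An AP-1 match stood in 1, Fcrlb. Neither motif was found in the Nfil3 and Junb windows.

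The 12 largest rises outside chromosome 6 without overlap lay on 10 chromosomes. Hmga2, an architectural chromatin protein of embryonic and tumor cells, led. It was 60.8 in PLK2null-1963, 82.8 in PLK2null-1964, 50.9 in PLK2null-1965, 84.5 in PLK2null-7747, 0 in PLK2null-7748 and 48.8 in PLK2null-7763. Met-high tumors had 222 to 12730 (median, 2398), so that Hmga2 rose by 6.27 ± 1.05 (SE; adjusted p = 0.00039, limma). Within the Met-high tumors its r with Met was 0.84.

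Secreted and matrix products were among these rises. Spp1 (osteopontin) was 1651 to 24999 in Met-low (median, 4595) and 29765 to 465812 in Met-high tumors (median, 134020), a difference of 4.68 ± 0.84 (SE; adjusted p = 0.000762, limma). Grem1, a secreted antagonist of bone morphogenetic proteins, was 6.19 to 78.8 in Met-low and 133 to 2322 in Met-high tumors. Fndc1, a fibronectin type III domain protein, was 24.1 to 552 against 960 to 6394. Pglyrp1, a peptidoglycan-binding protein of neutrophil granules, was 43.5 to 192 against 801 to 5644, a difference of 5.11 ± 0.63 (SE; adjusted p = 1.87e-05, limma).

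Duox1, which makes hydrogen peroxide, was 14.7 to 84.7 in Met-low and 85.6 to 6788 in Met-high tumors. Its highest values stood in the set of PLK2null-7750, PLK2null-1984, PLK2null-1985 and PLK2null-1986, and its r within the Met-high tumors was -0.79. Ugt8a, which makes galactosylceramide, was 2.06 to 16.4 against 90.4 to 867, and Ankrd22, an ankyrin repeat protein, 5.27 to 30.7 against 56.6 to 674. Brinp3, Kcnj12 and Gzme were at or below 3 reads in 5, 3 and 5 of the 6 Met-low tumors, so their fitted differences of 5.41, 4.73 and 5.24 depend on the pseudocount, and the call of Brinp3 was lost with a pseudocount of 10. Without the set of PLK2null-7747 neither Brinp3 nor Kcnj12 was called, and Kcnj12 was lost also without that of PLK2null-7750 and with 1 mean per set. Clca3a2 and Gzme belong to families of near-identical copies, for which shared reads leave the gene assignment uncertain. Clca3a2 had a difference of 5.33 that missed the threshold without PLK2null-7763, without the set of PLK2null-7750 and without that of PLK2null-7753.

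The 12 largest falls lay on 9 chromosomes and were led by Krt5, the basal keratin. Krt5 was 36680 in PLK2null-1963, 8000 in PLK2null-1964, 9781 in PLK2null-1965, 9505 in PLK2null-7747, 9443 in PLK2null-7748 and 6097 in PLK2null-7763. Met-high tumors had 0 to 2851 (median, 7.28), and 6 of the 17 were at or below 3 reads. Krt5 fell by 8.69 ± 2.22 (SE; adjusted p = 0.0107, limma), and its call was lost without the set of PLK2null-7747 or without that of PLK2null-7750. Col17a1, the hemidesmosome collagen of basal cells, was 2527 to 20311 in Met-low and 0.652 to 717 in Met-high tumors. The call of Col17a1 was lost without the set of PLK2null-7747 and with 1 mean per set.

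Otor, encoding the secreted protein otoraplin, was 29.1 to 6300 in Met-low tumors (median, 3402) and at or below 3 reads in all 17 Met-high tumors. Its Met-low median was at least 1515-fold higher than that floor. Actbl2, an actin-like gene, was 60.3 to 636 in Met-low and 0 to 3.26 in Met-high tumors (adjusted p = 5.00e-07, limma). With 1 mean per set its adjusted p was 0.0086 (limma). Fgf8, a fibroblast growth factor, was 46.7 to 1071 against 0 to 8.67.

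The homeobox factor Irx4 had a median of 1846 in Met-low and of 2.34 in Met-high tumors, without overlap, and its call was lost in the same settings as that of Krt5 and without the set of PLK2null-7749. Gjc3 (a connexin), Kctd4, Crispld1, Galnt14 (a mucin-type O-glycosyltransferase), Pcdhac2 and Lamp5 fell by 6.94 to 7.80. Their sizes depend on the pseudocount, because 8 to 15 of the 17 Met-high tumors were at or below 3 reads. With a pseudocount of 10 the differences were -4.84 for Galnt14, -4.58 for Pcdhac2 and -4.59 for Lamp5. Pcdhac2 is a clustered protocadherin that shares exons with its neighbours, so its assignment is uncertain.

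The 2 tumors between the thresholds divided. PLK2null-1967 lay within the Met-high range for 10 of the 12 rises and 9 of the 12 falls, and PLK2null-1971 lay within the Met-low range for 5 of the rises and 9 of the falls. It lay within the Met-high range for 5 of the rises and for none of the falls.

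**Figure D3:**
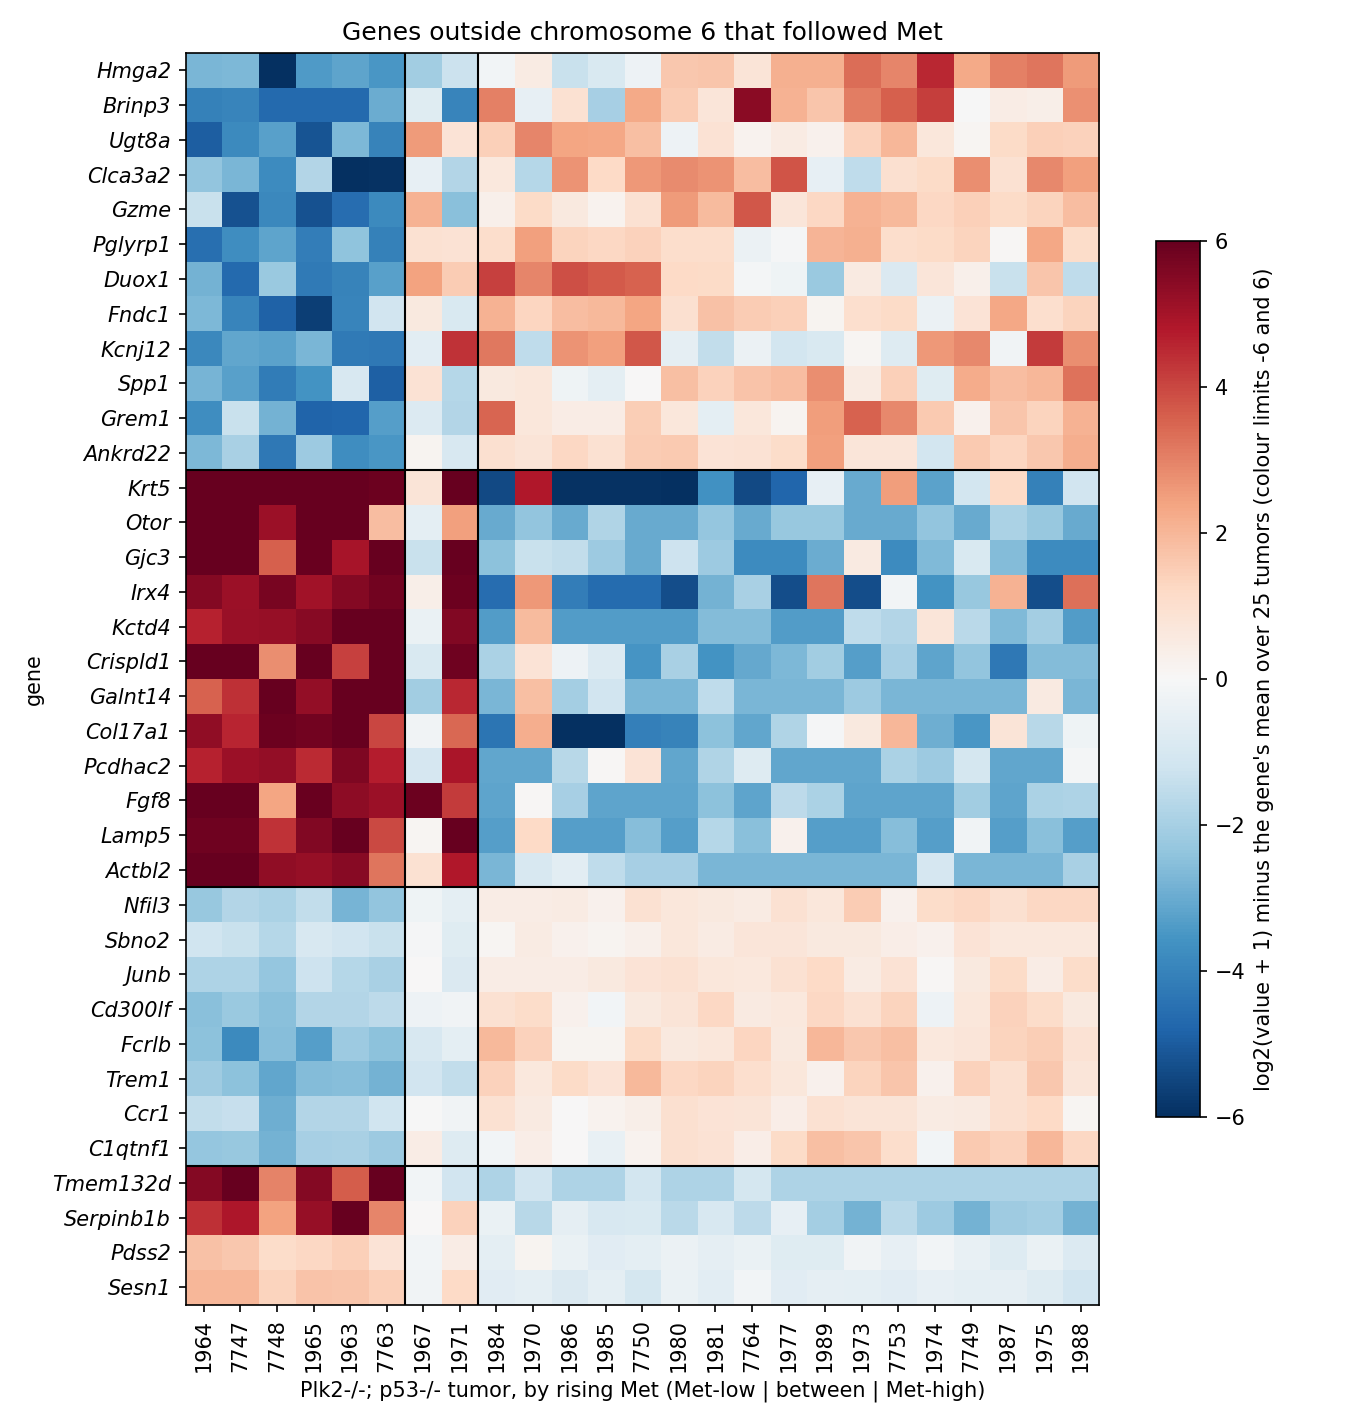
Each row is a gene and each column 1 of the 25 tumors in order of rising Met; colour is log2(value + 1) minus the gene's mean over the tumors. From the top, the blocks hold the 12 largest rises, the 12 largest falls, the 8 genes most like Met and the 4 most unlike, and the 6 Met-low tumors at the left lie beyond the 17 Met-high tumors at the right in every row, although in rows such as Duox1 and Clca3a2 the nearest tumors of the groups have nearly the same colour.

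In the HGF and Met pathway itself few members passed the test, where 5.76% of all genes were higher and 10.7% lower. Of 7 members of HGF and its activation tested, St14 (matriptase) was 1351 to 6195 in Met-low and 2781 to 11628 in Met-high tumors and rose by 1.59 ± 0.53 (SE; adjusted p = 0.0424, limma). That call was lost without PLK2null-7763 (adjusted p = 0.157, limma), without PLK2null-1964 or PLK2null-7747, without each of 4 other sets, with 1 mean per set and with no filter. Mst1, the ligand of the related receptor Ron, was 26.3 to 454 in Met-low and 0 to 19.8 in Met-high tumors and fell by 5.69 (adjusted p = 0.00035, limma). The ligand Hgf was 16.9 to 38.5 in Met-low and 18.7 to 103 in Met-high tumors, and its difference of 1.19 ± 0.53 missed the threshold (SE; adjusted p = 0.129, limma). The medians of the 7 genes and of all genes were 1.09 and -0.17.

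Of 12 Met family members and co-receptors 2 rose, Cd44 by 1.73 and Erbb3 by 1.45. Both calls were lost without PLK2null-7763. Of 20 adaptors and effectors, 3 rose (Stat3 by 1.03, Ptprj by 0.91 and Sos2 by 0.68) and Plcg1 fell by 0.83. The list's median was 0.21, and of all genes 5.76% were higher and 10.7% lower. Without PLK2null-7763 1 was called higher and 0 lower, as without the set of PLK2null-7750 or that of PLK2null-7753, with 1 mean per set none was called, and with TMM scaling 4 were higher and 0 lower. Stat3 was 3806 to 8325 in Met-low and 7494 to 16598 in Met-high tumors, and its r with Met within the Met-high tumors was 0.86. The adaptors Gab1 and Grb2 had differences of 0.35 and 0.53 that missed the threshold.

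Genes of MAPK feedback and output rose in 4 of 17 members and fell in 2, with a median of 0.56. Among all genes 5.76% were higher and 10.7% lower, so the count of falls was near that share. Fosl1, an AP-1 subunit induced by ERK, rose by 3.04 and Errfi1, a feedback inhibitor of the EGF receptor, by 1.98. Ets1 fell by 1.26 and Etv5 by 1.07. Without PLK2null-7748 1 was called higher, without PLK2null-7763 2, and without the set of PLK2null-7753 2. Errfi1 was 1947 to 5492 in Met-low and 7981 to 23606 in Met-high tumors, without overlap.

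AP-1 and immediate early genes were higher in 10 of 14 members and lower in 1, with a median of 1.38, where 5.76% of all genes were higher. Beside Junb and Fosl1, Jund rose by 2.06, Ier2 by 1.62, Fos by 1.54, Fosl2 by 1.22 and Egr1 by 1.20. Ier3, Klf6 and Maff made up the rest. Egr2, a zinc finger factor, was 994 to 2560 in Met-low and 173 to 617 in Met-high tumors and fell by 1.98 (adjusted p = 0.00596, limma). Of the 10 genes 3 (Junb, Jund and Ier2) lie on chromosome 8 beyond 40 Mb, a stretch described below. Without PLK2null-7748 5 members were called higher, without the set of PLK2null-7747 3, without that of PLK2null-7750 5, and with 1 mean per set 4.

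Inflammatory cytokines and chemokines rose in 10 of 22 members and fell in 1, with a median of 1.98. Among all genes 5.76% were higher and 10.7% lower. Il23a, a subunit of interleukin-23, was 8.77 to 60.2 in Met-low (median, 11.9) and 163 to 1323 in Met-high tumors (median, 482), a difference of 4.03 ± 0.67 (SE; adjusted p = 0.000354, limma). Ptgs2, the inducible cyclooxygenase, rose by 3.62, and Lcn2 (lipocalin 2) by 3.41. Lcn2 was 5608 to 14618 in Met-low and 56055 to 262220 in Met-high tumors. Cxcl15, a chemokine, fell by 5.55. Without PLK2null-7748 6 members were called higher, without the set of PLK2null-7753 6, and without that of PLK2null-7747 5.

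Myeloid markers moved in the same direction, where 5.76% of all genes were higher. Of 10 macrophage markers 6 were called higher (median, 1.43), among them Itgam by 2.74, Cd68 by 1.85 and C1qa by 1.60, while Adgre1 (0.87) and Csf1r (0.87) missed the threshold. The summed macrophage value was 6470 to 17212 in Met-low and 13895 to 46774 in Met-high tumors. Of 8 neutrophil markers tested 5 were called higher (median, 2.23), and the sum was 264 to 1029 against 673 to 3520. None of the 10 macrophage and none of the 10 neutrophil markers was at 0 in all Met-low tumors. The part of these cells in the levels of Trem1, Cd300lf, Ccr1, Pglyrp1 and the cytokines was not tested. Without the set of PLK2null-7747 4 macrophage and 1 neutrophil markers were called, without PLK2null-7748 5 and 2, and with 1 mean per set 2 and 2. Without the set of PLK2null-7753 1 neutrophil marker was called.

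Among invasion proteases and their inhibitors 4 of 19 rose and none fell, with a median of 1.75, where 5.76% of all genes were higher. Timp1, an inhibitor of metalloproteinases, was 134 to 463 in Met-low and 793 to 3726 in Met-high tumors, a difference of 3.06 ± 0.61 (SE; adjusted p = 0.0017, limma). Adam8, a membrane metalloproteinase, rose by 2.23 and Plaur, the urokinase receptor, by 1.97. Without PLK2null-7748 2 were called, without the set of PLK2null-7753 2, and without that of PLK2null-7747 1.

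Factors of the epithelial-mesenchymal transition split, with 4 of 13 higher and 1 lower, where 5.76% and 10.7% of all genes were. Fn1 (fibronectin) was 1280 to 9869 in Met-low and 27784 to 119984 in Met-high tumors, a difference of 3.72 ± 0.64 (SE; adjusted p = 0.000525, limma), and Snai1 rose by 2.10. Snai2, in contrast, was 921 to 3096 in Met-low and 22.6 to 278 in Met-high tumors and fell by 4.24 ± 0.67 (SE; adjusted p = 0.000216, limma). Tgfb2 and Tgfb3 rose by 1.59 and 1.55. Vim had a difference of 0.04 and Zeb1 of -1.05, neither called. Without the set of PLK2null-7750 or that of PLK2null-7753 2 were called higher, and with 1 mean per set 1.

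Lineage markers differed too. From RNA the paper sorted the Plk2-/-; p53-/- tumors into luminal-like, basal-like and claudin-low classes, and it reported high Met in the luminal-like class. By number, PLK2null-1975 and p53null-2208L match its luminal-like lines, PLK2null-1963 its basal-like line and PLK2null-743 its claudin-low line. Classes of the other tumors were not used here, so Met group and class were not separated. Of 20 basal markers 7 were lower and 1 higher (median, -0.83), where 10.7% and 5.76% of all genes were. After Krt5 and Col17a1, Trim29 fell by 5.88 and Trp63, the basal transcription factor p63, by 5.39. Trp63 was 2447 to 7601 in Met-low and 9.34 to 1455 in Met-high tumors. Dsg3, a desmosomal cadherin, rose by 4.76. Krt14 and Krt17 had differences of -0.38 and -0.23 that missed the threshold. Without the set of PLK2null-7747 1 basal marker remained called lower, without that of PLK2null-7750 3, and with 1 mean per set 2.

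Of 12 myoepithelial markers 3 fell, with a median of -1.72, where 10.7% of all genes were lower. Myh11 fell by 3.94, Cnn1 fell by 3.48 and Myl9 fell by 3.36, and Acta2 had a difference of -2.03 (adjusted p = 0.0587, limma). Without the set of PLK2null-7747 1 myoepithelial marker was called, with 1 mean per set 0, and without PLK2null-7763 5. Of 23 luminal markers 6 rose (median, 0.93), against 5.76% of all genes. Among the 6, Ehf rose by 2.55, Krt7 by 2.48 and Krt18 by 1.66. Without PLK2null-7763 only 1 was called, with 1 mean per set 1, without the set of PLK2null-7750 2 and without that of PLK2null-7753 3. Against the same 5.76%, 4 of 13 milk secretion genes rose: Csn3 (kappa-casein) by 5.14, Muc1 by 3.74, Wfdc18 by 3.55 and Xdh by 2.89. Without PLK2null-7763 2 were called, and without the set of PLK2null-7750 2.

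Of 14 Notch pathway genes 3 were lower, with Hey2 at -2.34 and Nrarp at -2.10, where 10.7% of all genes were lower. Jag2, a Notch ligand, fell by 3.82. It was 1742 to 3321 in Met-low and 52.2 to 428 in Met-high tumors. With 1 mean per set 1 Notch pathway gene was called lower. Of 20 Wnt ligands and targets 3 fell: Wnt6 by 6.09, Sostdc1 by 5.54 and Wif1 by 4.98. Sostdc1 and Wif1 are secreted inhibitors of Wnt. That count is near the 10.7% of all genes, and without the set of PLK2null-7747 1 was called lower. Of 14 EGF ligands and ErbB receptors Hbegf rose beside Erbb3, and Erbb4 and Nrg2 fell, where 5.76% of all genes were higher and 10.7% lower. Without PLK2null-7763 1 was called in each direction, as without PLK2null-7748. Of 20 hypoxia and glycolysis genes 3 rose, Hk2 by 1.81, Pfkfb3 by 0.96 and Hk1 by 0.83. Hk2 lies on chromosome 6. Of all genes 5.76% were higher, and no hypoxia or glycolysis gene was called without PLK2null-7748, without the set of PLK2null-7750, with 1 mean per set or with no filter. Without PLK2null-7763 1 was called, as without PLK2null-1964.

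For 8 of the 28 lists no member was called: proliferation, polo-like kinases, endothelium, pericyte, T cell, B cell, skeletal muscle and red blood cell. Mki67 had a difference of -0.19 ± 0.30 (SE; adjusted p = 0.710, limma). Plk1 had a difference of 0.06 ± 0.35 (SE; adjusted p = 0.923, limma). Plk2, whose gene was disrupted in all 23 tumors, had residual values of 83.3 to 380 in Met-low and 83.8 to 553 in Met-high tumors, a difference of 1.31 ± 0.54 (SE; adjusted p = 0.0992, limma). Col1a1 was the only fibroblast marker called, and it rose by 2.54 (adjusted p = 0.0452, limma). Its call was lost without PLK2null-1964, PLK2null-1965, PLK2null-7747 or PLK2null-7748, without the sets of PLK2null-1967, PLK2null-7747, PLK2null-7750 or PLK2null-7753, and with no filter. Pparg, on chromosome 6, was the only adipocyte marker called, and it fell by 2.44. Without PLK2null-7763, where adipocyte markers were high, its difference was -1.45 and no adipocyte marker was called.

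**Figure D4:**
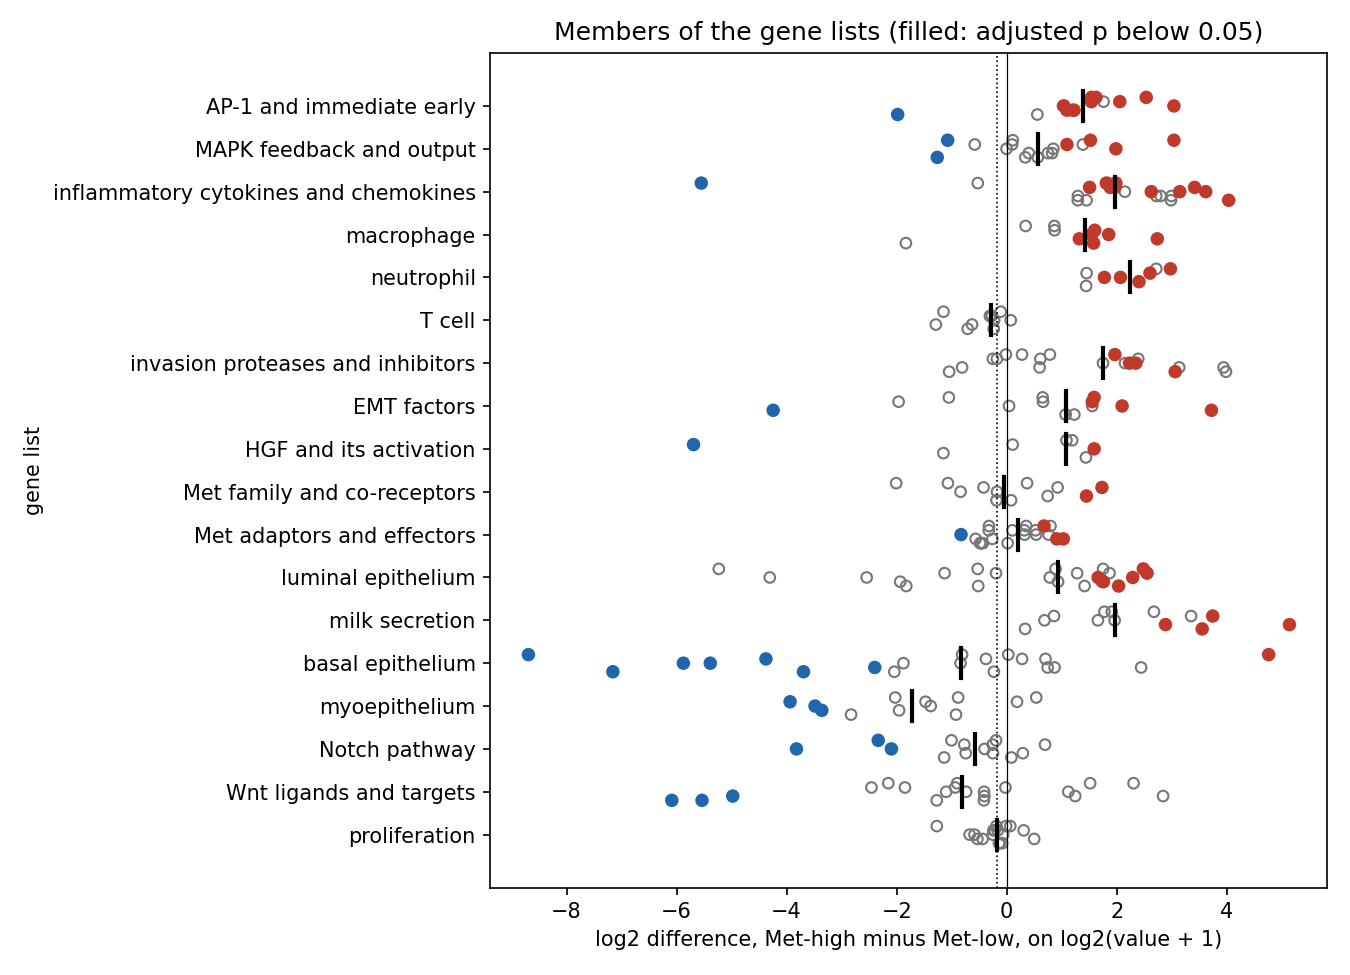
Each point is a gene of the list named at the left; the horizontal axis is its log2 difference, Met-high minus Met-low, filled points passed an adjusted p of 0.05 (red higher, blue lower), black bars are list medians and the dotted line is the median of all genes, -0.17. Most filled points of the AP-1, cytokine, macrophage and neutrophil lists lie to the right, with 1 exception each in the first 2, and most of the basal and all of the myoepithelial ones to the left.

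Genes that differed were unevenly spread over chromosomes. On chromosome 8, 21.6% of 813 tested genes were higher and 7.26% lower in Met-high tumors, and on chromosome 4, 3.18% of 1005 were higher and 24.9% lower. Chromosome 8 was divided. In its first 40 Mb 3.37% of 178 genes were higher and 27.5% lower, with a median difference of -0.65, and beyond 40 Mb 26.8% of 635 genes were higher and 1.57% lower, with a median of 0.56. The boundary at 40 Mb was chosen after the values were seen.

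Each tumor's median deviation over 511 genes of chromosome 8 beyond 40 Mb was -0.61 to -0.38 in the 6 Met-low and -0.10 to 0.27 in the 17 Met-high tumors, without overlap. For 142 genes of the first 40 Mb it was -0.19 to 0.91 against -0.39 to 0.15, and PLK2null-7748 at -0.19 was the Met-low tumor within the Met-high range. On chromosome 4 it was 0.10 to 0.39 against -0.31 to 0.22, and the groups overlapped. The p53-/- tumors spanned -0.49 to 0.68 on chromosome 8 beyond 40 Mb, with 0.25 in p53null-2208L. DNA copy number was not analysed here, and whether it moved with these levels was not tested.

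On chromosome 6 next to Met, 7 of 25 tested genes within 2 Mb were called, all higher in Met-high tumors, with differences from -0.18 to 5.31 over the 25 (median, 2.39). Of all 879 genes tested on that chromosome 3.64% were higher and 9.33% lower.

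**Figure D5:**
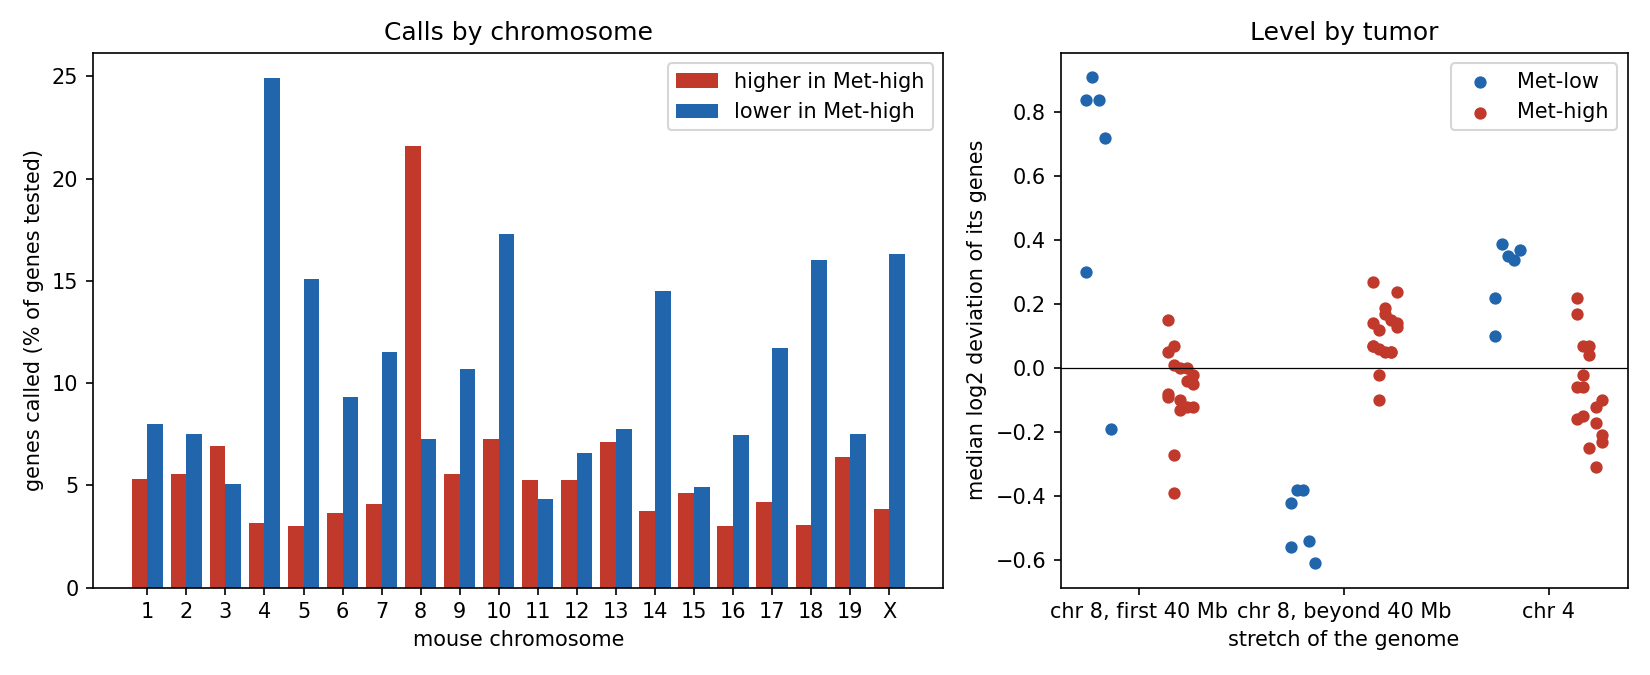
Left, bars give the share of tested genes of each chromosome called higher (red) or lower (blue) in Met-high tumors. Right, each point is 1 tumor's median deviation in log2 over the genes of a stretch, relative to the 25 tumors and to the tumor's own median; the 6 Met-low tumors lie at -0.38 or below for chromosome 8 beyond 40 Mb and the 17 Met-high tumors at -0.10 or above.

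Whether the same transcripts followed Met in other tumors was examined in the 13 p53-/- tumors by the slope on log2(Met + 1). No related sets were built for these tumors, and they were tested without a block. Of 15246 genes tested outside chromosome 6 none was called (0.0%; limma), and 910 (5.97%) had an unadjusted p below 0.05. Comparing p53null-2208L with the other 12 tumors gave 9 calls, but that arm holds 1 tumor, assumed to vary like the other 12, and Met cannot be told apart there from anything else particular to it. Slopes had the same sign as the difference in Plk2-/-; p53-/- tumors for 12 of the 12 largest rises. The same held for 11 of 11 falls tested and 7 of 7 Met-like genes tested. For the rises and the Met-like genes the reference is 6512 positive slopes among the 15246 genes. With Met at 93104 in p53null-2208L and 144 to 3849 in the other 12, the slopes lean on that tumor. Its values, given next, are therefore not a separate observation.

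In p53null-2208L, the only p53-/- tumor above the Met-high threshold, all 12 rises were above the median of the other 12 tumors, as were 44.1% of all genes. All 12 falls were below that median, as were 55.7% of all genes. Beyond all 12 other tumors lay 3 of the 8 Met-like genes, Nfil3 at 1054, Sbno2 at 7376 and Junb at 5331. Highest values in the others were 1031, 4274 and 4575, which lay within the ranges of the Met-high tumors although Met was low there. Nfil3 lay within its Met-high range also in p53null-T11 (892), p53null-10155 (715), p53null-2396R (690) and p53null-5329 (582). Of the 12 rises 1 lay above all 12 others, where 3.91% of all genes did, and of the 12 falls 3 lay below all 12, where 8.51% of all genes did. Of the 4 genes that ran opposite to Met 2 were below the median of the others and 0 below all 12.

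The 3 tumors left out of the groups, PLK2null-732, PLK2null-733 and PLK2null-743, had Met values of 276, 231 and 186. They shared part of the Met-low profile. For 10 of the 12 rises all 3 had values no higher than the highest Met-low tumor, but for 0 of the 12 falls did all 3 reach the lowest Met-low tumor. Krt5 was 102, 19.8 and 7.91 in them, below all 6 Met-low tumors. Of the Met-like genes, Junb was 3645, 2116 and 2933, above all 6 Met-low tumors. Nfil3 was 163, 123 and 237 and Sbno2 932, 964 and 2021, so that PLK2null-743 was above all 6 for both and the other 2 were not. Hmga2, at 531, 419 and 243, was within the Met-high range.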

How the data were processed

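RNA of 41 mouse mammary tumors was measured by paired mRNA sequencing, 1 library per tumor. Per the labels, the authors aligned reads to mm10 with STAR 2.7.6a and used SAMtools, Picard 2.22.4 and Salmon 1.4.0. They deposited a linear signal, Salmon estimated counts scaled to an upper quartile of 1000, for 47480 symbols, and no column was left unused. Of nonzero values 77.9 to 80.5% per tumor lay within 0.1 read of whole reads, too few to recover counts, so log2 values were tested. The value of 1 read was 0.493 to 0.753. Floors cover counting error only. Of all values 51.5% were 0.

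The rule on Met values gave the groups. Genes with a mean of at least 10 were tested with limma 3.58.1 in R 4.3.3 on log2(value + 1), with the related set as a block and Benjamini-Hochberg adjustment over all 16929 genes, Met excepted and chromosome 6 included. Fold changes on this scale understate changes of low genes. Of these, 609 matched no single GENCODE vM21 gene and were not counted by chromosome. Segment deviations used genes with a mean of at least 100. The Met-high against Met-low fit was tested on simulated data. No pair of tumors agreed within sampling noise (PLK2null-7750 and PLK2null-1984 came closest, at a chi-square of 4.51 for the median gene), so each was entered separately. Labels do not give separate origins, so p-values measure the spread between these samples.

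Named genes were Met, Plk1 and Plk2, the 12 largest non-overlapping called differences in each direction outside chromosome 6 without predicted genes, the 8 highest and 4 lowest correlations with Met, and examples from 28 gene lists; Sbno2, Nfil3, Junb and Trem1 windows came from RefSeq. The members and lists were chosen with earlier results of these data known. Python 3.11.15, numpy 2.4.6, pandas 2.3.3, scipy 1.17.1 and matplotlib 3.10.9 were used. Alternatives were a pseudocount of 10, other filters, trimmed-mean (TMM) and quantile scaling, an intensity trend, no block, 1 mean per set, other sets and fewer tumors. The values of 1 called list member are not reported here.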

Additional observations from a re-analysis of the deposited data

Results flagged for a closer look

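In 4 of 39 genes examined, 1 of the 6 Met-low tumors lay far from the other 5 on the log2 scale by Dixon's criterion, which chance alone reaches in about 1 of 20 groups. Hmga2 was 0 in PLK2null-7748. Gzme was 13.8 in PLK2null-1964. Krt5 was 36680 in PLK2null-1963. Ccr1 was 69.3 in PLK2null-7748. All 4 genes remained called when the tumor concerned was left out.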

How the results depend on the processing

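The numbers of genes called higher and lower outside chromosome 6, 890 and 1645, became 2394 and 4792 with tumors taken as independent and 225 and 398 with 1 mean per related set. They became 457 and 659 without the set of PLK2null-7747, and 513 and 881 without that of PLK2null-7750. Genes called lower numbered 1091 without the set of PLK2null-7753 and 993 with TMM scaling. Leaving out 1 Met-low tumor gave 599 to 897 higher and 1234 to 1647 lower. Other alternatives stayed within 1.5 times, including sets cut at 9, which were chosen after seeing the data (987 and 1906). In the p53-/- tumors a comparison of p53null-2208L, alone in its arm, with the other 12 gave 9 calls in place of 0. The causes were not tested.

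The 24 largest differences kept their direction wherever they were tested. They were chosen without overlap between the groups, so leaving tumors out or averaging sets could not reverse them. Of the 24, 18 were called with 1 mean per set, without Hmga2, Duox1, Kcnj12, Krt5, Irx4 and Col17a1. Of 130 called genes in the lists and among the named genes, 434 of 2840 repeats lost the call and 0 reversed. No paired analysis was possible because no set of tumors had members in both groups. With 6 Met-low tumors from 3 sets, their number limits the precision.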
